A study of Homo sapiens with 6 samples.

Results

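Axon guidance ligands and receptors were followed in SH-SY5Y cells with a stable knockdown of TDP-43. The genes were chosen by symbol: Eph receptors, ephrins, semaphorins of classes 3 to 7, plexins, neuropilins, SLIT and ROBO genes, netrins, UNC5 receptors and DCC. This gave 69 genes of 26372 in the table, namely 14 Eph receptors, 8 ephrins, 20 semaphorins, 11 plexins and neuropilins, 7 SLIT and ROBO genes, and 9 netrins and netrin receptors.

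The shTDP43 cells carried a lentiviral hairpin against TDP-43, and the shNC cells carried a control hairpin in the same vector. SH-SY5Y is an established human neuroblastoma line. Both groups were grown in medium with 15% fetal bovine serum, and the libraries of both groups carry the same protocol, with puromycin at 2 µg/mL for 2 weeks and then 1 µg/mL. Its wording names the knockdown cells alone. Each group had 3 libraries of poly(A) RNA, and nothing in the labels says whether these came from separate infections or cultures, so p-values measure the spread between these libraries, which may be technical. With a single hairpin against TDP-43, an effect of TDP-43 and another effect of the hairpin or of the selected population cannot be told apart.

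Guidance molecules steer growing axons and migrating cells by contact or by secreted cues. Ephrins are bound to the membrane and activate Eph receptor tyrosine kinases on neighbouring cells, and can signal back into their own cell. Semaphorins act through plexins, and most secreted class 3 members need a neuropilin as the binding partner. SLIT proteins repel axons through ROBO receptors, and netrins attract through DCC or repel through UNC5 receptors. Cells of the sympathetic neuroblast lineage, from which neuroblastoma arises, migrate and extend processes under several of these cues.

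TARDBP, which encodes TDP-43, had 36.0, 33.1 and 34.8 FPKM in the shTDP43 libraries, against 56.1, 56.2 and 56.6 FPKM in the shNC libraries. FPKM counts fragments per kilobase of gene, scaled to library size. The groups did not overlap, the shTDP43 mean was 61.5% of the shNC mean, and the log2 difference was -0.69 (SE 0.03; limma adjusted p = 2.84e-06; exact two-sided permutation p = 0.1, the smallest that 3 against 3 libraries allow). Depth is not given by FPKM values, but steps among 1655 low genes gave relative depths of 1 to 1.12 for the shTDP43 libraries and 1.16 to 1.27 for the shNC libraries. Depth was thus lower in each shTDP43 library, which bears on genes near 0. Of 17 tested noradrenergic neuroblast markers 7 were higher and 9 lower, where 18.5% of all tested genes were higher and 19.6% lower. Their summed level was 2644 ± 32.9 FPKM in shTDP43 and 3202 ± 13.4 FPKM in shNC (SD, n = 3 each), or 82.6% of the shNC mean. CHGB (33.6% of the shNC mean), RET (42.1%) and STMN2 (42.8%) fell furthest among them, while DBH, GATA3 and HAND2 stood above 100 FPKM in every library and TH, a defining enzyme gene of that lineage, was at or near 0. In bulk samples such as these, fewer cells of a type and less RNA per cell cannot be told apart.

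TDP-43 binds UG-rich stretches of RNA, many of them in introns and in 3′ untranslated regions. The longest protein-coding transcript of each guidance gene in GENCODE 29 (GRCh38) was searched on its sense strand for TG repeats of at least 3 units (TGTGTG). Among the 47 guidance genes that passed a filter on mean FPKM, 42 had such a run in that transcript, which is 89.4%, against 70.7% of the 11600 tested genes with a coding transcript and 86.4% of the 3563 of them with a transcript of 3968 to 7327 bases. A run of at least 12 bases was found in 9 of the 47 (19.1%), against 5.13% of all and 6.65% in that length range. The range is the middle 50% of guidance transcript lengths, and the 47 were not restricted to it. Of the 9, PLXNA4 (13786 bases), UNC5C (9875), PLXNC1 (7346), SEMA4C (3545) and EPHA2 (3964) lie outside it. Neither share of the 47 is thus matched for length. These 9 are shown because the runs are the sequence that TDP-43 is known to bind; all lie in 3′ untranslated regions. Capitals mark the run, in windows of 30 bases with T for U.
SEMA6D, plus strand of chr15:47772359-47772388: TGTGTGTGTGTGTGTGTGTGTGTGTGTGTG
UNC5B, plus strand of chr10:71300030-71300059: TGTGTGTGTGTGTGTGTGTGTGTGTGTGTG
EPHB3, plus strand of chr3:184582252-184582281: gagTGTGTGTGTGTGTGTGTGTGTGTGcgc
PLXNA4, minus strand of chr7:132128605-132128634: cacatgtaTGTGTGTGTGTGTGtctgcccc
PLXNC1, plus strand of chr12:94305823-94305852: atttgtgagTGTGTGTGTGTGtttaaacca
UNC5C, minus strand of chr4:95163047-95163076: gaacatcacTGTGTGTGTGTGatgtcatgg
SEMA4C, minus strand of chr2:96860292-96860321: acatgtgttTGTGTGTGTGTGtatgtgtgt
EPHA2, minus strand of chr1:16124594-16124623: tggagagaaTGTGTGTGTGTGgcagggggc
EPHA8, plus strand of chr1:22602044-22602073: gtgcgtgcaTGTGTGTGTGTGgtggggggt
The runs of SEMA6D and UNC5B are 32 bases long, of which the first 30 are printed. As given below, SEMA6D, PLXNC1, UNC5C and SEMA4C were higher in shTDP43, PLXNA4, UNC5B and EPHA2 were lower, and EPHB3 and EPHA8 did not pass the test. Runs of this length thus stood in 4 of 14 genes called higher (28.6%), 3 of 15 called lower (20.0%) and 2 of 18 that did not pass (11.1%). These counts are small, and median transcript length in the 3 sets was 7112, 5174 and 5102.5 bases, in the same order. Runs of at least 3 units had medians of 0.516, 0.462 and 0.599 per kilobase, highest in genes that did not pass. Whether runs went with calls was not tested. The runs are matches to letters in an annotated transcript. Introns were not searched and binding was not analysed here.

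Of the 69 guidance genes, 47 averaged 1 FPKM or more across the 6 libraries and were tested. Values were compared as log2(FPKM + 1) with limma over all 13263 genes that passed this filter, and a gene counted as called at a Benjamini-Hochberg adjusted p under 0.05. Guidance genes were chosen with earlier results of these data known, so the shares below describe the set and do not test it. Called guidance genes numbered 29 (61.7% of those tested), where 38.1% of all tested genes were called. Of these, 14 were higher in shTDP43 and 15 lower; among all tested genes 18.5% were higher and 19.6% lower. A called difference of at least 0.3 on the log2 scale was found in 17 guidance genes (36.2%), against 13% of all tested genes. The median log2 difference was near 0 in both, at -0.003 for guidance genes and 0.001 for all tested genes, while the median absolute difference was 0.20 for guidance genes and 0.12 for all. The groups did not overlap in 32 of the 47, 16 of them higher and 16 lower, against 50.7% of all tested genes (25.3% higher and 25.4% lower). Guidance genes stood at a lower median level than all tested genes (5.94 against 10.6 FPKM). Among genes of at least 5 FPKM, 11 guidance genes were higher and 10 lower of 28, where 42.9% of all such genes were called. Without shTDP43 replicate 3 and shNC replicate 1, in which the small nucleolar RNA SNORD3A was low, 9 guidance genes were called higher and 12 lower (44.7% of 47), where 25.1% of all tested genes were called.

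**Figure D1:**
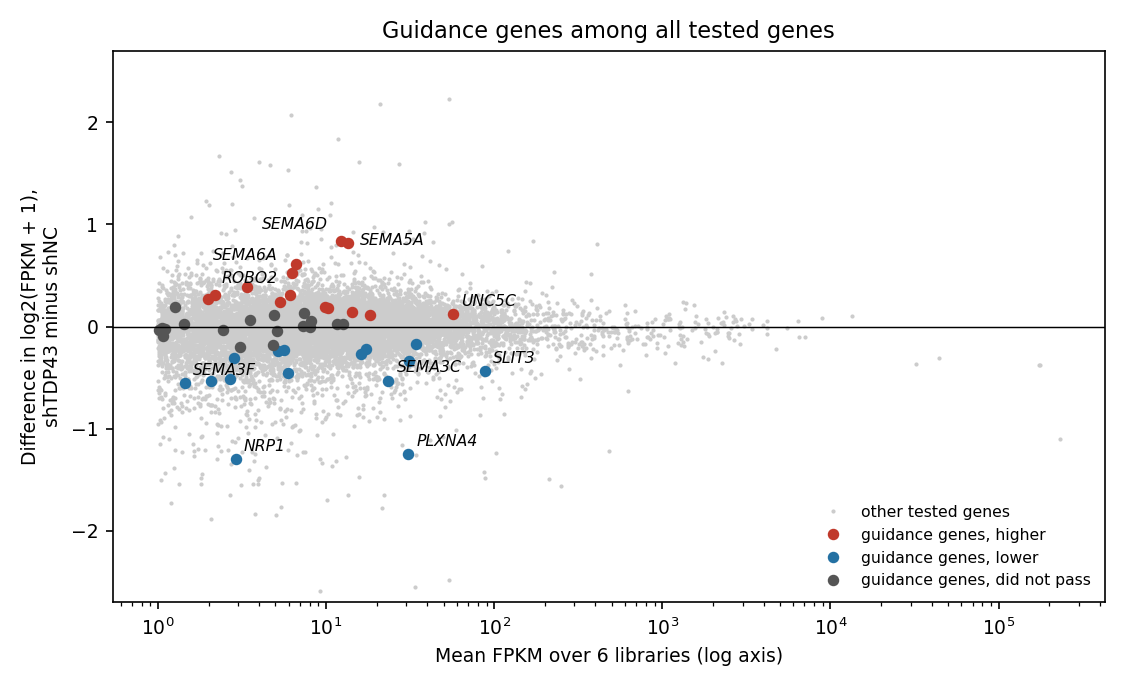
Difference in log2(FPKM + 1), shTDP43 minus shNC, against mean FPKM over 6 libraries (log axis), for each tested gene (grey) and for the guidance genes (red higher, blue lower, dark grey did not pass; mean of 3 libraries in each group). NRP1 and PLXNA4 lie lowest among the guidance genes at -1.30 and -1.25, SEMA6D and SEMA5A highest at 0.84 and 0.82; 10 other genes lie outside the plotted range.

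Ligands and receptors both held calls in each direction. Of 23 tested ligands 7 were higher and 7 lower, and of 24 tested receptors 7 were higher and 8 lower. Calls in both directions were found within each of the 6 families, as the plot of differences by family shows.

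**Figure D2:**
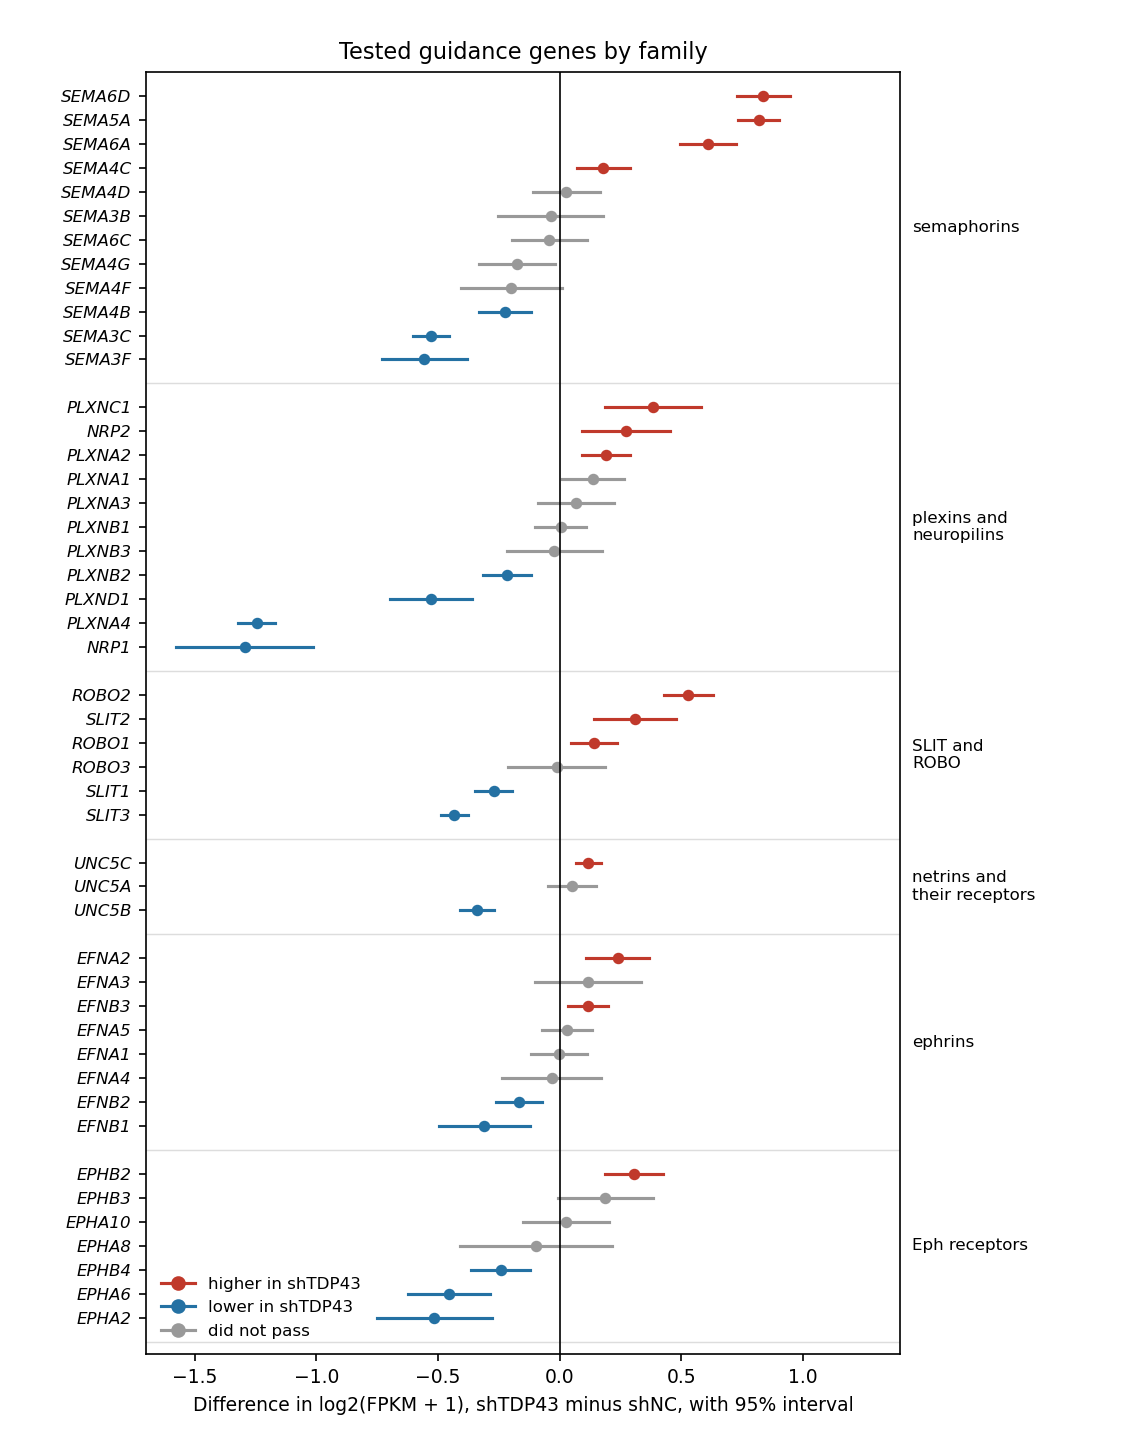
Difference in log2(FPKM + 1), shTDP43 minus shNC, with its 95% interval from limma (n = 3 libraries in each group), for the 47 tested guidance genes in 6 families. Each family holds genes whose interval lies above 0 and genes whose interval lies below 0.

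Among the semaphorins, the transmembrane members SEMA6D, SEMA5A and SEMA6A were higher in shTDP43, and the secreted SEMA3C and SEMA3F were lower. SEMA6D (GRCh38 chromosome 15, 47184089 to 47774228), a ligand of class A plexins, had 15.2, 15.6 and 17 FPKM in shTDP43 libraries, against 8.57, 8.27 and 8.58 FPKM in shNC libraries. The lowest shTDP43 value lay far above the highest shNC value, and the mean was 188% of that in shNC (log2 difference 0.84, SE 0.05; limma adjusted p = 8.12e-06). SEMA5A (chromosome 5, 9035033 to 9546075), which carries thrombospondin repeats next to its semaphorin domain, had 17, 17.6 and 17.8 FPKM in shTDP43, against 9.51, 9.69 and 9.21 FPKM in shNC, 184% of the shNC mean (log2 difference 0.82, SE 0.04; limma adjusted p = 2.1e-06). SEMA6A, a ligand of PLXNA2 and PLXNA4, had 7.77, 8.63 and 8.32 FPKM in shTDP43, against 5.07, 5.01 and 5.09 FPKM in shNC, 163% of the shNC mean. All 3 genes were separated between the groups, and SEMA6A passed with a limma adjusted p of 5.95e-05. Exons of SEMA6A overlap those of the antisense RNA SEMA6A-AS1 over 268 bases, and the sources used here do not say whether counting used strand. SEMA5A (436 bases) likewise overlaps an annotated antisense RNA with no row in the table. Among the tested genes described next, so do SEMA3F (110 bases), SEMA4G (271 bases), NRP1 (561 bases), NRP2 (147 bases) and PLXNC1 (222 bases). The same holds for SLIT3 (up to 334 bases), UNC5C (78 bases) and EFNB2 (1313 bases). Reads of the gene and its antisense partner cannot be told apart in these genes unless counting used strand.

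SEMA3C, which binds neuropilins and guides neural crest-derived cells in mice, had 19.5, 18.7 and 18.7 FPKM in shTDP43 libraries, against 27.4, 27.5 and 28.5 FPKM in shNC libraries. It fell to 68.2% of the shNC mean with no overlap between groups (log2 difference -0.53, SE 0.03; limma adjusted p = 1.04e-05). SEMA3F, a ligand with preference for NRP2, had 0.965, 1.02 and 0.963 FPKM in shTDP43, against 1.86, 1.88 and 2.00 FPKM in shNC, 51.3% of the shNC mean (limma adjusted p = 0.000858). SEMA3C was the highest semaphorin of classes 3, 5 and 6 in every library, but the distance to the others differed between groups. The level of SEMA5A was 0.873, 0.944 and 0.949 times that of SEMA3C in shTDP43 libraries, against 0.347, 0.352 and 0.323 times in shNC libraries. The level of SEMA6D was 0.779 to 0.910 times that of SEMA3C in shTDP43 and 0.301 to 0.313 times in shNC. Summed over each class, class 5 stood at 17.9 ± 0.409 FPKM in shTDP43 and 10.5 ± 0.344 FPKM in shNC, and class 6 at 29.4 ± 1.07 FPKM in shTDP43 and 18.9 ± 0.327 FPKM in shNC (SD, n = 3 each). Class 3 stood at 21.5 ± 0.335 FPKM in shTDP43 and 31.6 ± 0.707 FPKM in shNC, and class 4 at 36.8 ± 1.39 FPKM in shTDP43 and 37.5 ± 0.448 FPKM in shNC, where only the class 4 ranges overlapped.

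Class 4 semaphorins, membrane-bound ligands of class B plexins, differed little. SEMA4C was higher at 115% of the shNC mean (11 ± 0.350 FPKM in shTDP43 and 9.62 ± 0.507 FPKM in shNC; SD, n = 3 each; limma adjusted p = 0.0188), and this call was lost without any one of 4 libraries (shTDP43 replicate 1 or 3, shNC replicate 2 or 3; limma adjusted p up to 0.0615). SEMA4B was lower at 83.1% of the shNC mean (limma adjusted p = 0.00631). SEMA4D, the ligand of PLXNB1, stood at 12.7 ± 0.716 FPKM in shTDP43 and 12.4 ± 0.908 FPKM in shNC (SD, n = 3 each) and did not pass (log2 difference 0.03, 95% interval -0.11 to 0.17). SEMA4F, SEMA4G, SEMA6C and SEMA3B did not pass either. SEMA4G was lower in every shTDP43 library than in every shNC library, with a limma adjusted p of 0.073. SEMA4G, at a mean of 4.82 FPKM, shares 1170 exonic bases with MRPL43 (mean 33.2 FPKM) on the opposite strand. Its value is uncertain to that extent unless counting used strand.

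The receptors of class 3 semaphorins held the largest log2 differences among the 47 tested guidance genes. NRP1 (chromosome 10, 33177493 to 33334667), the neuropilin that binds SEMA3A and also vascular endothelial growth factor, had 0.911, 1.30 and 1.57 FPKM in shTDP43 libraries, against 5.21, 4.09 and 4.29 FPKM in shNC libraries. It fell to 27.8% of the shNC mean (log2 difference -1.30, SE 0.12; limma adjusted p = 0.000127), and the highest shTDP43 value lay well below the lowest shNC value. NRP2, the related receptor that binds SEMA3F, had 2.25, 2.42 and 2.14 FPKM in shTDP43, against 1.70, 1.56 and 1.87 FPKM in shNC. NRP2 passed as higher (133% of the shNC mean; limma adjusted p = 0.0263), but not without any one of 4 libraries (shTDP43 replicate 1 or 2, shNC replicate 1 or 2; limma adjusted p up to 0.0857). The order of the neuropilins was therefore not the same in the groups: the level of NRP1 was 0.405, 0.538 and 0.733 times that of NRP2 in shTDP43 libraries, against 3.07, 2.63 and 2.29 times in shNC libraries. The sum of both was 3.53 ± 0.319 FPKM in shTDP43 and 6.24 ± 0.632 FPKM in shNC (SD, n = 3 each).

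PLXNA4 (chromosome 7, 132123340 to 132648688), a class A plexin that transmits SEMA3A signals with neuropilins and SEMA6A signals without them, had 17.1, 18.0 and 18.2 FPKM in shTDP43 libraries, against 44.3, 42.8 and 43.3 FPKM in shNC libraries. It fell to 40.9% of the shNC mean, with a log2 difference of -1.25 (SE 0.03; limma adjusted p = 1.23e-07), the lowest adjusted p of the guidance genes. PLXNA2 was higher at 116% of the shNC mean (10.6 ± 0.461 FPKM in shTDP43 and 9.12 ± 0.192 FPKM in shNC; SD, n = 3 each; limma adjusted p = 0.00999). PLXNA1 (111% of the shNC mean) and PLXNA3 (106%) did not pass, with limma adjusted p values of 0.083 and 0.476. PLXNA4 was the most abundant class A plexin in every library, with 43.9% to 45.9% of their summed level in shTDP43 and 68.7% to 69.5% in shNC. That sum was 39.7 ± 1.24 FPKM in shTDP43 and 63.0 ± 0.728 FPKM in shNC (SD, n = 3 each).

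**Figure D3:**
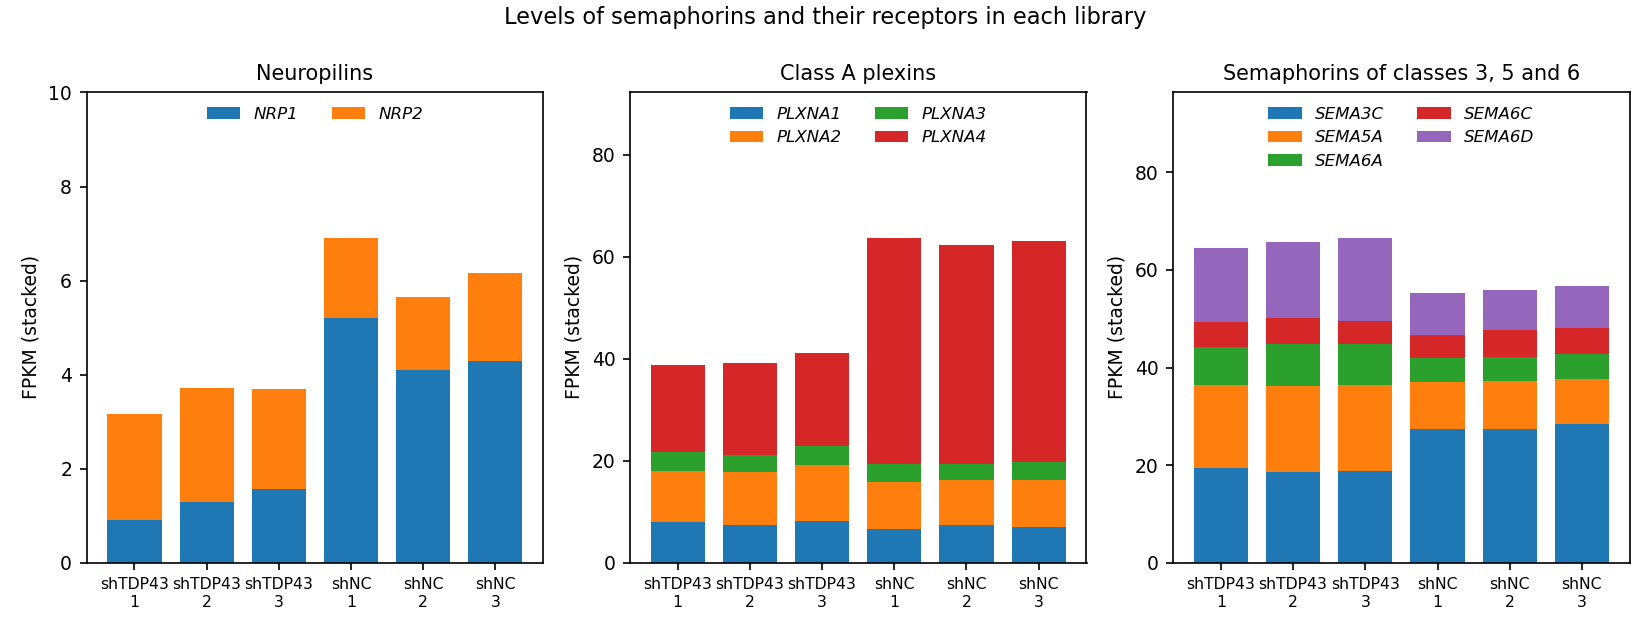
Stacked FPKM of the neuropilins (left), class A plexins (middle) and 5 semaphorins of classes 3, 5 and 6 (right) in each of the 6 libraries, with the 3 shTDP43 libraries left of the 3 shNC libraries. NRP1 and PLXNA4 take a smaller part in each shTDP43 library, and SEMA5A, SEMA6A and SEMA6D a larger part beside a smaller SEMA3C.

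PLXND1, the receptor of SEMA3E, had 1.53, 1.47 and 1.55 FPKM in shTDP43 libraries, against 2.72, 2.77 and 2.41 FPKM in shNC libraries, 57.6% of the shNC mean (limma adjusted p = 0.000934). PLXNC1, the receptor of the membrane-anchored SEMA7A, had 3.84, 4.48 and 3.62 FPKM in shTDP43, against 3.02, 2.90 and 2.51 FPKM in shNC, 142% of the shNC mean (limma adjusted p = 0.00902). Neither gene overlapped between the groups, PLXND1 being lower and PLXNC1 higher. PLXNC1 shares 177 exonic bases with CEP83 on the opposite strand. PLXNB2, a receptor of class 4 semaphorins, had 15.0, 15.7 and 16.8 FPKM in shTDP43, against 18.5, 18.7 and 18.4 FPKM in shNC, 85.4% of the shNC mean (limma adjusted p = 0.00506). PLXNB1 stood at 7.30 ± 0.208 FPKM in shTDP43 and 7.27 ± 0.250 FPKM in shNC (SD, n = 3 each; log2 difference 0.00, 95% interval -0.10 to 0.11), and PLXNB3 at 97.3% of the shNC mean did not pass.

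In the SLIT and ROBO family, the abundant ligands were lower and the receptors ROBO1 and ROBO2 higher. SLIT3 (chromosome 5, 168661740 to 169301139), the most abundant guidance gene in every library, had 73.3, 75.7 and 74.9 FPKM in shTDP43 libraries, against 103, 101 and 99.1 FPKM in shNC libraries. It fell to 73.8% of the shNC mean with separate groups (log2 difference -0.43, SE 0.02; limma adjusted p = 8.03e-06). SLIT1, a mainly neural SLIT, had 14.5, 14.4 and 14.5 FPKM in shTDP43, against 18.2, 17.3 and 17.6 FPKM in shNC, 81.9% of the shNC mean (limma adjusted p = 0.000458). SLIT1 shares 216 exonic bases with the read-through transcript ARHGAP19-SLIT1, so its value is uncertain to that extent. SLIT2, a repellent of commissural axons, had 2.56, 2.40 and 2.61 FPKM in shTDP43, against 1.98, 1.86 and 1.68 FPKM in shNC, and rose to 137% of the shNC mean (limma adjusted p = 0.0117).

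ROBO2 had 7.65, 7.55 and 7.66 FPKM in shTDP43 libraries, against 4.88, 5.05 and 4.99 FPKM in shNC libraries. It rose to 153% of the shNC mean (log2 difference 0.53, SE 0.04; limma adjusted p = 6.02e-05). ROBO1, the most abundant ROBO, stood at 15.0 ± 0.500 FPKM in shTDP43 and 13.5 ± 0.552 FPKM in shNC (SD, n = 3 each; 111%; limma adjusted p = 0.0294), and lost its call without any one of 4 libraries (shTDP43 replicate 2 or 3, shNC replicate 2 or 3; limma adjusted p up to 0.0961). ROBO3, a ROBO of commissural axons, did not pass (98.2% of the shNC mean). Summed SLIT levels were 91.6 ± 1.16 FPKM in shTDP43 and 120.6 ± 2.46 FPKM in shNC, and summed ROBO levels were 23.8 ± 0.509 FPKM in shTDP43 and 19.7 ± 0.543 FPKM in shNC (SD, n = 3 each). Neither sum overlapped between the groups.

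**Figure D4:**
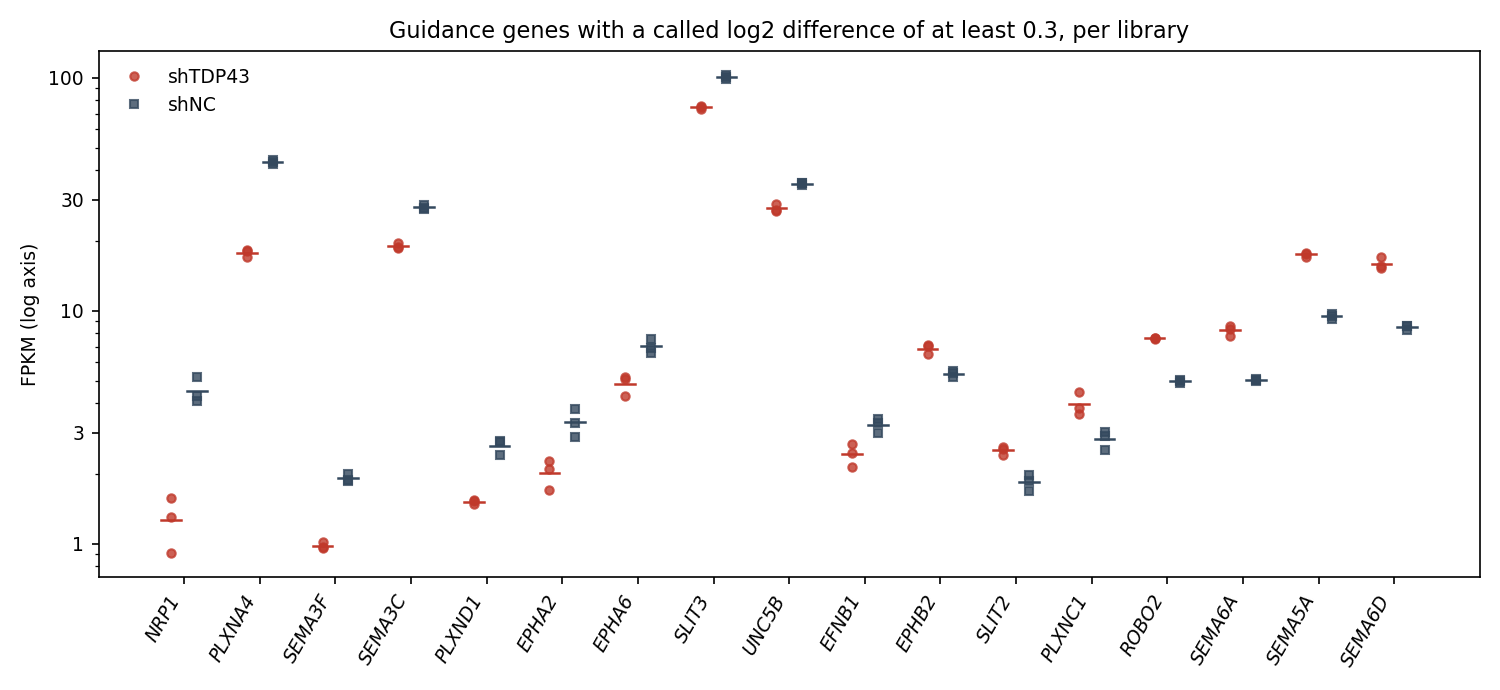
FPKM (log axis) in each library of the 17 guidance genes with a called log2 difference of at least 0.3, ordered from the largest fall to the largest rise, with shTDP43 libraries (red circles) left of shNC libraries (dark squares) and a line at each mean of 3 libraries. In none of the 17 do the groups overlap.

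Of the netrin receptors, UNC5C, UNC5B and UNC5A were tested. UNC5B (chromosome 10, 71212570 to 71302864), a repulsive netrin receptor that also induces cell death when unbound, had 26.9, 27.1 and 28.6 FPKM in shTDP43 libraries, against 35.3, 35.3 and 34.8 FPKM in shNC libraries, 78.4% of the shNC mean (log2 difference -0.34, SE 0.03; limma adjusted p = 9.31e-05). UNC5C, the most abundant netrin receptor, had 59.1, 59.0 and 59.6 FPKM in shTDP43, against 54.9, 54.6 and 53.8 FPKM in shNC, 109% of the shNC mean (limma adjusted p = 0.00363). UNC5B was lower and UNC5C higher with no overlap, so that UNC5C stood at 2.15 ± 0.0597 times UNC5B in shTDP43 and 1.55 ± 0.0065 times in shNC (SD, n = 3 each), while the summed level of the 4 UNC5 genes was 96.1 ± 1.39 FPKM in shTDP43 and 97.9 ± 0.981 FPKM in shNC. UNC5A did not pass (104% of the shNC mean; 95% interval of the log2 difference -0.05 to 0.15). The ligands were scarce: NTN1, NTN3, NTN4 and NTN5 together reached 2.1 ± 0.191 FPKM in shTDP43 and 2.09 ± 0.236 FPKM in shNC (SD, n = 3 each), and DCC, the attractive receptor, stood at 0.357 ± 0.105 FPKM in shTDP43 and 0.389 ± 0.0859 FPKM in shNC.

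All 8 ephrins were tested, and differences among them were small. EFNB2, the most abundant ephrin and a ligand of EPHB4, had 31.7, 34.1 and 30.7 FPKM in shTDP43 libraries, against 37.1, 35.3 and 36.3 FPKM in shNC libraries, 88.8% of the shNC mean (limma adjusted p = 0.0137). EFNB1 had 2.13, 2.68 and 2.44 FPKM in shTDP43, against 3.43, 3.28 and 2.99 FPKM in shNC, 74.8% of the shNC mean (limma adjusted p = 0.0182). EFNB3 had 18.8, 19.4 and 18.8 FPKM in shTDP43, against 16.9, 17.4 and 18.1 FPKM in shNC, 109% of the shNC mean (limma adjusted p = 0.0328). The ephrin-B genes thus did not move one way, EFNB1 and EFNB2 being lower and EFNB3 higher, each with separate groups. The call of EFNB1 was lost without shTDP43 replicate 1, shNC replicate 1 or shNC replicate 2 (limma adjusted p up to 0.0631), and that of EFNB3 without any library but shNC replicate 3 (limma adjusted p up to 0.103). Of the ephrin-A genes, which are anchored by a lipid, EFNA2 was higher at 122% of the shNC mean (5.86 ± 0.115 FPKM in shTDP43 and 4.82 ± 0.319 FPKM in shNC; SD, n = 3 each; limma adjusted p = 0.0115). EFNA1, EFNA3, EFNA4 and EFNA5 did not pass, at 96.9% to 109% of the shNC mean.

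Of 14 Eph receptors 7 were tested. EPHA2 had 2.08, 2.26 and 1.70 FPKM in shTDP43 libraries, against 2.87, 3.29 and 3.78 FPKM in shNC libraries, 60.8% of the shNC mean (log2 difference -0.52, SE 0.10; limma adjusted p = 0.00534). EPHA6, a receptor of neural tissue, had 4.32, 5.19 and 5.08 FPKM in shTDP43, against 6.94, 7.53 and 6.61 FPKM in shNC, 69.2% of the shNC mean (limma adjusted p = 0.00195). Both fell without overlap. EPHB2, a receptor of axon pathfinding and of synapses, had 6.50, 7.03 and 7.11 FPKM in shTDP43, against 5.19, 5.51 and 5.43 FPKM in shNC, and rose to 128% of the shNC mean (limma adjusted p = 0.00247). EPHB2 was thus the most abundant Eph receptor in each shTDP43 library, at 1.42 ± 0.0766 times EPHA6, whereas it stood at 0.767 ± 0.0476 times EPHA6 in shNC (SD, n = 3 each). EPHB4, the receptor of EFNB2, was lower at 81.9% of the shNC mean (limma adjusted p = 0.00846), and EPHB3 (126%), EPHA10 (103%) and EPHA8 (88.7%) did not pass. EPHB4 shares 69 exonic bases with SLC12A9 on the opposite strand. EPHA3, EPHA4 and EPHA5 were listed at 0 in all 6 libraries. An exact 0 can be a failed estimate here, since the abundant nuclear RNA MALAT1 was also listed at 0 throughout.

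The remaining 19 genes below the filter were above 0 in a library, and none exceeded 1.28 FPKM in any. UNC5D, a netrin receptor expressed by cortical neurons in mice, had 1.01, 0.966 and 1.04 FPKM in shTDP43 libraries, against 0.362, 0.321 and 0.316 FPKM in shNC libraries. SEMA5B, the closest relative of SEMA5A, had 0.404, 0.299 and 0.473 FPKM in shTDP43, against 1.17, 0.975 and 0.868 FPKM in shNC, the opposite order. SEMA7A had 1.12, 1.23 and 0.996 FPKM in shTDP43, against 0.923, 0.918 and 0.798 FPKM in shNC, and NTN3 overlapped between the groups. In a fit without the filter, UNC5D passed as higher and SEMA5B as lower (limma adjusted p = 0.000294 and 0.00429). SEMA3D, named after its values were seen, also passed there as lower, with 0.0248, 0.119 and 0.0377 FPKM in shTDP43, against 0.290, 0.318 and 0.342 FPKM in shNC (limma adjusted p = 0.00327). At such levels depth, which was lower in shTDP43 libraries, and group cannot be told apart for genes that were lower.

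Genes that act beside these ligands and receptors, namely co-receptors, other ligands of the same receptors and intracellular effectors, were taken from a list of 76, of which 66 were tested. In this list 12 were higher and 19 lower (47.0% called, against 38.1% of all tested genes), with a median log2 difference of -0.03. Without shTDP43 replicate 1, 10 were higher and 11 lower (31.8%, against 33% of all tested genes), and without shTDP43 replicate 2, 7 were higher and 16 lower (34.8%, against 31.9%). Without both libraries low in SNORD3A 6 were higher and 11 lower (25.8%, against 25.1%), so the share called was near that of all genes in these fits. DPYSL3, an effector of growth cone collapse, had 33.3, 33.2 and 33.1 FPKM in shTDP43 libraries, against 61.5, 63.7 and 60.1 FPKM in shNC libraries, 53.7% of the shNC mean (limma adjusted p = 2.66e-07). RRAS, a small GTPase that plexins inactivate, fell to 56.4% of the shNC mean, NRCAM, an adhesion protein in semaphorin receptor complexes, to 70.7%, LINGO1, a co-receptor of myelin inhibitors, to 68.3%, and ISLR2 to 80.2%. Rises were led by FLRT3, a ligand of UNC5 receptors, with 3.03, 2.93 and 2.56 FPKM in shTDP43, against 1.67, 1.5 and 1.65 FPKM in shNC (177% of the shNC mean; limma adjusted p = 0.000977). SRGAP1, a GTPase-activating protein that acts below ROBO receptors, had 6.31, 6.87 and 6.85 FPKM in shTDP43, against 5.02, 4.52 and 4.35 FPKM in shNC (144%; limma adjusted p = 0.00094). DPYSL5 (116% of the shNC mean) and DPYSL4 (114%), relatives of DPYSL3, and the kinase gene PAK3 (117%) completed the largest rises, and PAK3 lost its call without any one of 4 libraries (shTDP43 replicate 2 or 3, shNC replicate 1 or 3; limma adjusted p up to 0.0617).

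Summed marker levels of several cell types were lower in shTDP43, those of noradrenergic neuroblasts (82.6% of the shNC mean) included. The fall of the noradrenergic sum lay mainly in STMN2 and CHGB. STMN2 had means of 290 FPKM in shTDP43 and 678 FPKM in shNC, and CHGB 126 FPKM and 375 FPKM. CHGA went the other way (520 FPKM and 296 FPKM), and of 17 tested noradrenergic markers 7 were higher and 9 lower. Of 18 markers of the mesenchymal type of neuroblastoma cell 13 were tested, and 11 were lower and 1 higher in shTDP43, where 19.6% of all tested genes were lower and 18.5% higher. Their summed level was 473 to 487 FPKM in shTDP43 and 539 to 545 FPKM in shNC, and 211 to 221 FPKM in shTDP43 and 355 to 361 FPKM in shNC without TWIST1, the 1 that rose. PRRX1, a defining factor of that type, was at 0 in all shTDP43 libraries and above 0 in a single shNC library. The list of Schwann cell and glial markers held 12 genes, of which 3 were tested and 2 were lower (19.6% of all tested genes were lower), and their summed level, mostly PMP22, was 10.5 to 11.5 FPKM in shTDP43 and 21.0 to 22.5 FPKM in shNC; FABP7 was at 0 in all 6 libraries. The part of any of these marker lists in the differences of NRP1, PLXND1, SEMA3C or EPHA2 was not tested.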

How the data were processed

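RNA from 6 SH-SY5Y libraries, 3 shTDP43 and 3 shNC, was compared. The authors deposited FPKM values, one for each of 26372 gene symbols and library; per the submitters' processing notes, the tools were TopHat2 2.1.0, SAMtools and Cuffdiff 2.2.1, on build hg38. The sources used here do not give the annotation, strand use, treatment of reads with several matches or scaling between libraries. FPKM values hold no counts, so count models were not used and absolute depth is unknown; relative depth came from the most frequent ratio, to shTDP43 replicate 1, among genes with a mean under 0.3 FPKM. Such steps were too rough to recover reads.

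Values were analysed as log2(FPKM + 1) with limma 3.58.1 in R 4.3.3, with group as the only term, trended variances and Benjamini-Hochberg adjustment over the 13263 genes averaging 1 FPKM or more (two-sided test). Differences on this scale understate changes of low genes, so percentages are ratios of mean FPKM. The test was checked on simulated data. Guidance genes, gene lists and the rule for naming genes were chosen with earlier results of these data known. The rule gave values in every library to called members with a log2 difference of at least 0.3, to the 2 most abundant members of each family, and to called members of families with few calls; of the signalling partners it named the 5 largest rises and falls. Libraries within a group correlated at 0.993 to 0.995, and between groups at 0.980 to 0.982, and at most 0.0905% of tested genes had equal values in a pair. All 69 symbols matched RefSeq (GRCh38.p14), the source of gene locations; hg38 names the same assembly. Transcripts and exon overlaps came from GENCODE 29.

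Alternatives were a pseudocount of 0.1, no filter, a filter at 5 FPKM, quantile normalization, the replicate number as a block, and leaving out each library or both libraries in which SNORD3A was low (shTDP43 replicate 3 and shNC replicate 1).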

Additional observations from a re-analysis of the deposited data

How the results depend on the processing

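No guidance gene changed direction with a call under any alternative run. Of 29 called guidance genes, 24 kept their call without each single library. Counts of guidance genes ran from 10 to 12 higher and from 14 to 16 lower without each library in turn, those of signalling partners from 7 to 10 higher and 11 to 16 lower, and those of all genes from 1932 to 2093 higher and 2077 to 2292 lower; TARDBP ran from -0.71 to -0.65 and the guidance median from -0.0063 to 0.0096. Without both SNORD3A-low libraries, which leaves 2 libraries in each group, 9 guidance genes were higher, 6 partners higher and 11 lower, 1563 genes higher in all, and the guidance median was 0.011; EFNB2, EPHB4, PLXNA2 and SLIT2 lost their calls there only (limma adjusted p = 0.111, 0.0633, 0.0565 and 0.0552). That median was 0.029 at 5 FPKM or more and 0.044 with quantile normalization, which moved the median of all genes from 0.001 to 0.018.

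Same-numbered libraries deviated with correlations of -0.07, 0.06 and 0.11 and so share only a number; with the replicate block 11 guidance genes were higher and 15 lower, NRP2, ROBO1 and EFNB3 losing their calls (limma adjusted p = 0.0607, 0.0676 and 0.058), and 1 of the 3 shTDP43 libraries correlated best with its own number. Depth, known here only relative to shTDP43 replicate 1, limits the genes below 1 FPKM.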
